A study of Mus musculus with 188 samples.

Results

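The proteasome genes were taken as every gene row whose identifier maps to a symbol starting with Psma, Psmb, Psmc, Psmd, Psme or Psmf followed by a number, with pseudogenes left out. This gave 46 of 49585 gene rows. They were measured in 188 single cells of mouse tail epidermis, 94 on each of 2 plates, sorted at postnatal day 20 to ask how basal keratinocytes of the skin between hair follicles differ from each other and begin to differentiate. All cells came from Lrig1-CreERT2/RosaYFP mice and passed the same gate, negative for CD34 and YFP and positive for integrin alpha 6, so there is 1 group and no control group. In this strain the Lrig1 gene, active in the upper hair follicle, drives a Cre recombinase that switches on YFP, and the gate removed cells that carried that label. The labels name no animal, and neither an inducing drug nor the number of animals is stated. The cells therefore count as 1 sample, spreads are over cells, and no p-value was computed. Of the 46 names, 2 are not subunits by their usual description: Psmc3ip encodes a partner of the meiotic recombinases that only shares the prefix, and Psme2b is a retrogene copy of Psme2.

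The proteasome is the protease that degrades ubiquitin-tagged proteins in the cytosol and nucleus. Its 20S core is a barrel of outer rings of alpha subunits, which gate the entry, and inner rings of beta subunits, of which Psmb5, Psmb6 and Psmb7 encode the ones that cut. The 19S cap has a base of ATPases, which unfold the substrate, and a lid, which removes the ubiquitin chain. In cells exposed to interferon, Psmb8, Psmb9 and Psmb10 replace the cutting subunits and form the immunoproteasome, which serves antigen presentation. Expression of Krt10, a keratin of the layers above the basal layer, marks the start of keratinocyte differentiation.

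The upstream sequences of Psmb5 and Psmb6 and of Psmb10, the immunoproteasome gene with most reads, are shown because these genes carry the contrast in levels reported further on. They are RefSeq sequences on GRCm38.p6, and 39 of the 46 genes matched a window of 250 bases before a start site, 42 windows in all. Only the bases that lie in no annotated exon are printed, 5′ to 3′ on the gene's strand, and capitals mark a match to TGACNNNGC, the core of the antioxidant response element. The Psmb5 stretch lies at chr14:54618023-54618245 on the minus strand, the Psmb6 stretch at chr11:70525107-70525356 on the plus strand, and the Psmb10 stretch at chr8:105938445-105938642 on the minus strand.
Psmb5: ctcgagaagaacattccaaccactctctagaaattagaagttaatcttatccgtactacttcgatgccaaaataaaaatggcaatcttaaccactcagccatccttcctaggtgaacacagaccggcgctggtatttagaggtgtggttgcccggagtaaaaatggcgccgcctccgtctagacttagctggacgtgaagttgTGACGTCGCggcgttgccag
Psmb6: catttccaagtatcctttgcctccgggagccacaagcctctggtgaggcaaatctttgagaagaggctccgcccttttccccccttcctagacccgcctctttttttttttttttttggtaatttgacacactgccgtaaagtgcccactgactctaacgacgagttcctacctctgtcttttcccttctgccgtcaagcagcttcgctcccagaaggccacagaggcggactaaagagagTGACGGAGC
Psmb10: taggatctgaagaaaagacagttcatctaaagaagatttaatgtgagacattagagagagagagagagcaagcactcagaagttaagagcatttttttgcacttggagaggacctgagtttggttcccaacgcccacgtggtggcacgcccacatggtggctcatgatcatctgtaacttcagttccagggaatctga
The match began 47 bases before the Psmb5 start and 9 bases before the Psmb6 start, and the Psmb10 stretch held none of the 4 motifs searched on both strands. Over all windows, TGACNNNGC was found upstream of 5 proteasome genes (Psmb5, Psmb6, Psmc6, Psmd12 and Psmd9), which is 11.9% of their windows against 10.2% of 32841 RefSeq windows of the same length. The CCAAT box stood in 35.7% of proteasome windows and 33.9% of all windows. The core of the interferon-stimulated response element was found upstream of Psmb3, Psmd4 and Psmd9, 7.14% of windows against 2.98%. TTCNNNGAA, the gamma-activated sequence, was found upstream of Psmb8 alone, as TTCCCAGAA starting 97 bases before the start site, against 7.02% of all windows. No match overlapped a match to another motif, and a match describes letters in a window, not a bound site.

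A cell had 79868 to 1093805 counts over genes, median 369991, with reads in 5821 to 8720 genes. Mitochondrial counts made up 2.42% to 11.8%, and no 2 cells held identical counts. Krt14 and Krt5, keratins of the basal layer, had lowest values of 1630 and 1054 CPM (counts per 1000000 counts over genes). Summed markers of T cells, Langerhans cells, Merkel cells and endothelial cells had means of 0.311, 1.52, 0.0510 and 2.18 CPM, and those of melanocytes and fibroblasts 11.6 and 26.0 CPM; 4 of the 6 T cell and 2 of the 6 Langerhans cell markers had no read. Reads also strayed between wells. The estimated rate was 30.0 per 10000 reads from a well of the same lettered row on either plate. It was 14.9 from the same column of the same plate and 1.85 from other wells. In sum these stray reads came to 3.77% of a cell's counts at the lowest, 11.6% at the median and 61.6% at the highest, so a gene at high level passes 10 CPM through stray reads alone. Counts above 3 times the expected stray reads are therefore given beside those at 10 CPM. By that rule Krt14 was found in 159 and Krt5 in 168 of 188 cells.

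The proteasome genes took a similar share of the counts in most cells, with a coefficient of variation of 18.9%. The 46 genes summed to 2792 CPM in the lowest cell, 9363 CPM at the median and 14147 CPM in the highest, a mean of 9426 ± 1779 CPM (SD over 188 cells), which is 0.936% of a cell's counts at the median. The plates had means of 9386 ± 1903 and 9465 ± 1655 CPM (SD, 94 cells each). The lowest cell, well E11 of plate 1, lay apart from the next lowest at 4500 CPM, had 359922 counts and was high in Krt10 at 13225 CPM. Of the 44 genes with a read, 38 were at 10 CPM or more in at least 50% of cells, where 20.6% of the 20605 genes with a read passed. The 6 that did not were Psmb8, Psmb9, Psmb10, Psmd10, Psmc3ip and Psme2b. When the reads also had to exceed 3 times those expected from other wells, 35 of the 44 passed, beside 14.2% of all genes with a read, and Psmd5, Psmd9 and Psmf1 no longer did. Psma8, the alpha subunit of the testis, and Psmb11, the cutting subunit of the thymus proteasome, had no read in any of 188 cells, which allows a share of cells with a read of up to 1.60% by the limit of 3 cells in 188 and up to 1.94% by the exact 95% interval.

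**Figure D1:**
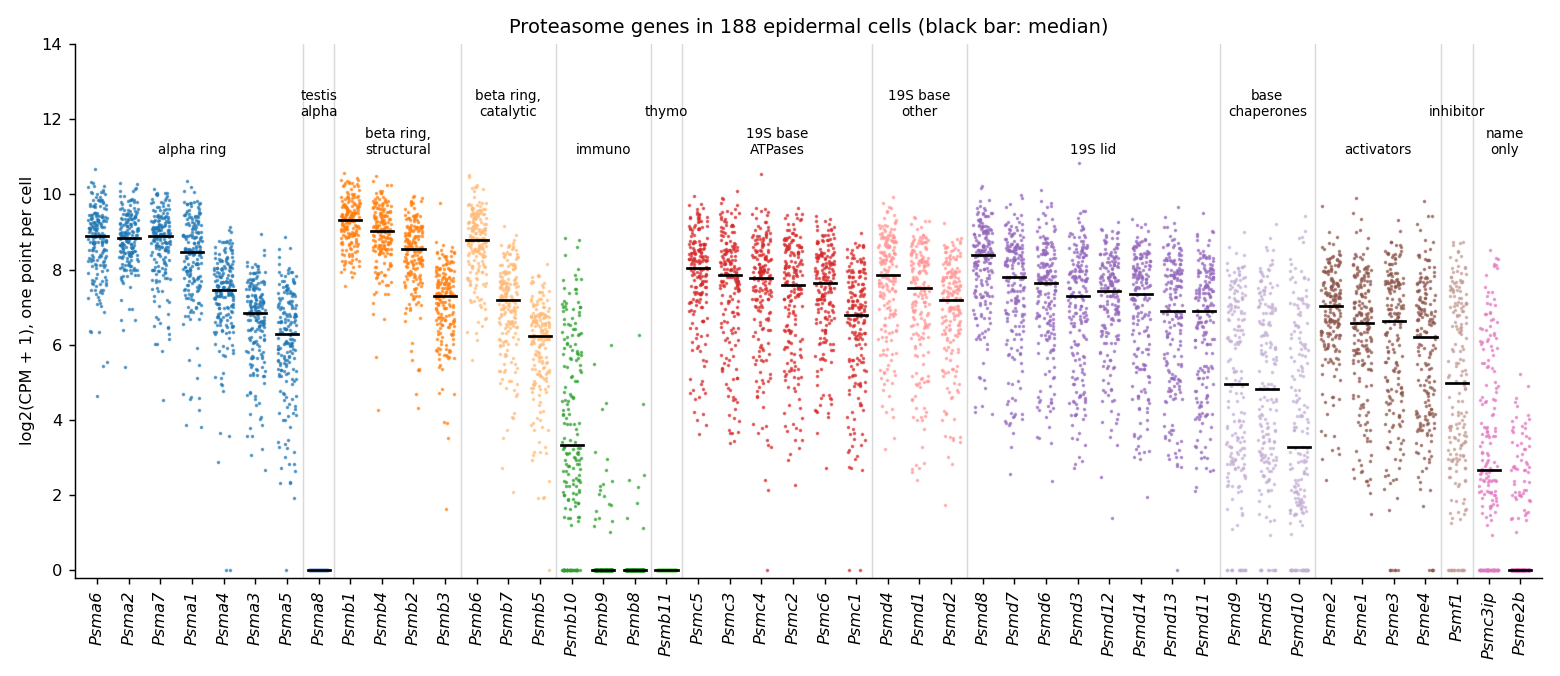
Level of each of the 46 proteasome genes, grouped by role, as log2(CPM + 1) on the vertical axis with 1 point per cell and a black bar at the median. The standard core and cap genes have medians of 73.8 CPM (Psmb5) to 638 CPM (Psmb1), while Psma8, Psmb11, Psmb8 and Psmb9 lie at 0 in most or all cells and Psmb10 is spread from 0 to its highest value of 459 CPM.

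The 14 genes of the standard 20S core summed to 4790 ± 1068 CPM (SD, 188 cells), with 967, 4702 and 7761 CPM in the lowest, median and highest cell. The alpha ring contributed 2294 ± 632 CPM and the beta ring 2496 ± 651 CPM. Within the alpha ring, Psma6 had 23.7, 478 and 1624 CPM and Psma2 had 41.7, 459 and 1258 CPM in the lowest, median and highest cell. Beyond 3 times the expected stray reads, Psma6 was found in 164 and Psma2 in 175 of 188 cells. Since longer transcripts give more reads, genes were compared per kb of exon. On that scale the alpha ring ran from 31.2 CPM per kb for Psma3 to 417 CPM per kb for Psma6, a 13.4-fold range among genes whose proteins stand in equal number in the ring.

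In the beta ring, Psmb1 had 189, 638 and 1525 CPM and Psmb4 had 18.2, 518 and 1433 CPM in the lowest, median and highest cell. Both encode ring subunits that do not cut, and beyond 3 times the expected stray reads they were found in 176 and 175 of 188 cells. The per-kb levels in the ring ran from 47.7 for Psmb7 to 327 for Psmb2, a 6.85-fold range. The 3 cutting subunits were unequal in the same way, with 258 ± 140 CPM per kb for Psmb6, 88.8 ± 59.1 for Psmb5 and 47.7 ± 31.7 for Psmb7 (SD, 188 cells). With the longest annotated transcript in place of all exons, these levels became 499, 88.8 and 57.3 CPM per kb, in the same order.

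The 17 genes of the 19S cap summed to 3753 ± 937 CPM, with 716, 3683 and 6105 CPM in the lowest, median and highest cell. The base held 2043 ± 602 CPM and the lid 1711 ± 561 CPM. Among the base ATPases, Psmc5 had 11.4, 264 and 991 CPM and Psmc3 had 9.54, 231 and 1079 CPM. Psmc5 was also the highest cap gene per kb, at 211 CPM per kb against 104 for Psmc3. Of the other base genes, the ubiquitin receptor Psmd4 had 8.34, 232 and 972 CPM and the scaffold Psmd1 had 4.24, 180 and 676 CPM. In the lid, Psmd8 had 16.9, 331 and 1188 CPM and Psmd7, the partner of the deubiquitinase Psmd14, had 4.95, 223 and 1019 CPM. Psmd14 itself had 2.88, 163 and 643 CPM. The lowest cap gene per kb was the lid subunit Psmd11 at 22.3, which makes a 9.47-fold range over the cap.

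Per kb, the base chaperones and the inhibitor lay below most subunits, and the activators were mixed. The 3 chaperones of the 19S base summed to 204 ± 169 CPM, with per-kb levels of 10.0 for Psmd5, 10.6 for Psmd9 and 37.7 for Psmd10, against a median of 72.4 over the 39 proteasome genes with a mean of at least 50 CPM. Psmd9 had 0, 30.2 and 511 CPM in the lowest, median and highest cell, and Psmd5 had 0, 27.3 and 588 CPM. Of the activators, Psme2 and Psme1, which form the PA28 cap of the core, had 4.31, 131 and 819 CPM and 1.84, 94.9 and 955 CPM. Psme3, the nuclear PA28 gamma, and Psme4, the PA200 activator, had means of 124 ± 119 and 110 ± 134 CPM, and Psme4 was low per kb at 13.1. Psmf1, which encodes the inhibitor PI31, had 0, 30.4 and 428 CPM. The retrogene Psme2b had 208 reads in all and 10 CPM or more in 9.57% of cells (exact Clopper-Pearson 95% interval 5.77% to 14.7%), and its close likeness to Psme2 leaves its reads uncertain. Intervals here cover counting error only.

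**Figure D2:**
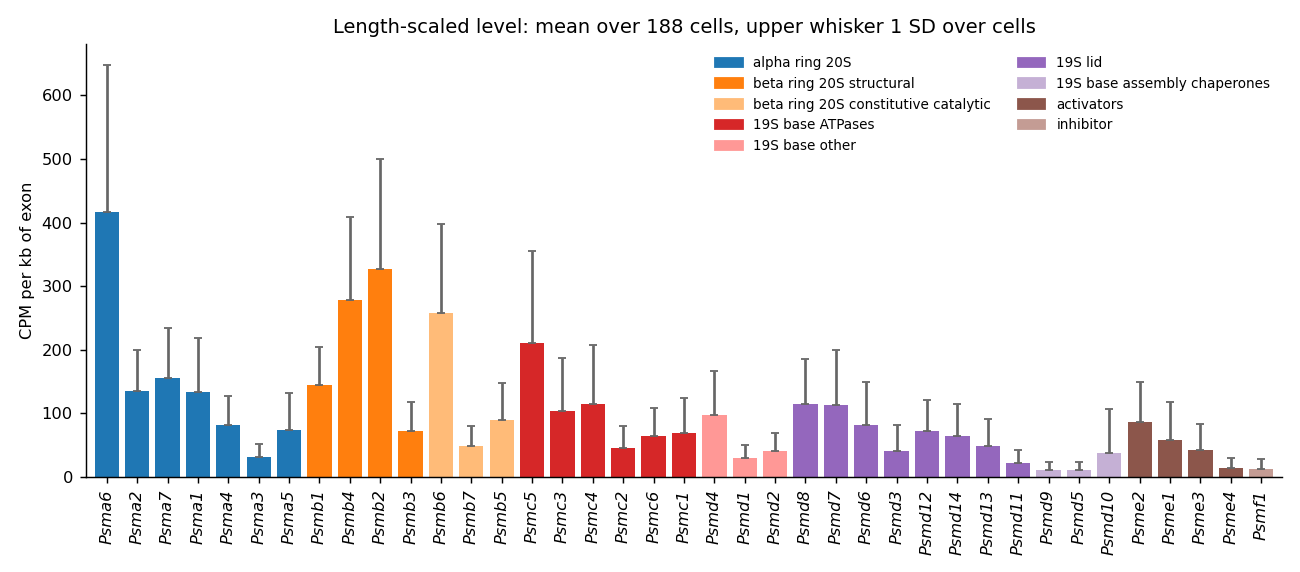
Mean level per kb of exon over 188 cells (bars) with 1 SD over cells (upper whiskers) for the 39 proteasome genes with a mean of at least 50 CPM, coloured by role. Psma6 stands highest at 417 CPM per kb on this scale (with the longest transcript as length it has 494 and Psmb6 499), and genes of 1 ring differ by up to 13.4-fold.

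The cutting subunits and their immunoproteasome counterparts differed by position in the ring. At the beta 5 position, Psmb5 had 0, 73.8 and 280 CPM in the lowest, median and highest cell, whereas Psmb8 had 0, 0 and 75.5 CPM. Only 29 reads of Psmb8 were counted in 188 cells. At the beta 1 position, Psmb6 had 47.2, 437 and 1453 CPM, whereas Psmb9 had 0, 0 and 62.4 CPM and 78 reads in all. The beta 2 position was the exception. Psmb7 had 3.23, 144 and 570 CPM and Psmb10 had 0, 9.16 and 459 CPM, from 3711 reads.

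Per kb and pooled over cells, Psmb5 was 750-fold above Psmb8 and Psmb6 949-fold above Psmb9, but Psmb7 was 1.66-fold above Psmb10. The first 2 folds rest on few cells: they became 1664 without well F4 of plate 1 and 1568 without well A3 of plate 1. They also depend on the length used. With the longest transcript, the mean level of Psmb8 went from 0.179 to 0.318 CPM per kb, with 88.8 for Psmb5 by both lengths. Psmb6 went from 258 to 499 CPM per kb and Psmb9 from 0.291 to 0.369. Psmb8 made up 0.276% of its pair on plate 1 and 0.00860% on plate 2, and Psmb9 0.168% and 0.0469%. Psmb10 thus made up 37.6% of the Psmb7 and Psmb10 signal per kb, 39.2% on plate 1 and 36.1% on plate 2. It was above Psmb7 per kb in 48 of 188 cells, and no cell had Psmb9 above Psmb6 or Psmb8 above Psmb5. At 10 CPM, Psmb10 was present in 48.9% of cells (exact 95% interval 41.6% to 56.3%), Psmb9 in 2.13% (0.583% to 5.36%) and Psmb8 in 1.06% (0.129% to 3.79%). The share for Psmb10 depended on the rule: 83.5% of cells had at least 1 read, and 40.4% had 10 CPM and more than 3 times the reads expected from other wells, which averaged 6.64 CPM for this gene. The levels of Psmb10 and Psmb7 showed no common trend over cells (Spearman rho -0.016, plates -0.006 and -0.024, 188 cells).

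**Figure D3:**
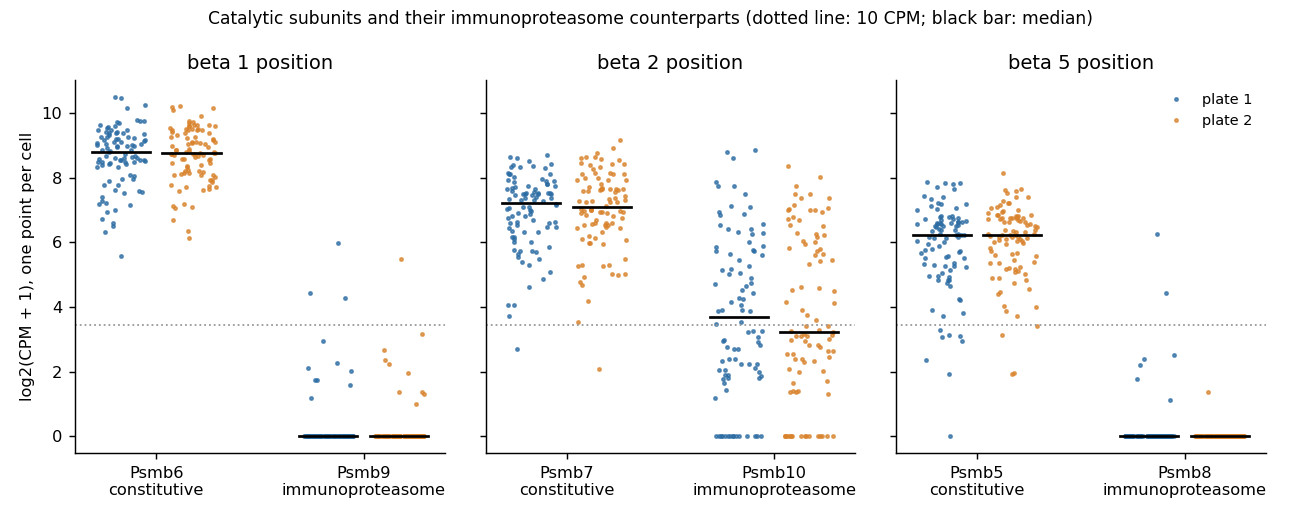
Level of each cutting subunit and its immunoproteasome counterpart, as log2(CPM + 1) with 1 point per cell, by plate; black bars are medians and the dotted line is 10 CPM. Psmb9 and Psmb8 lie at 0 in all but 21 and 8 cells, whereas Psmb10 spreads from 0 to 459 CPM.

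Interferon response genes were low or absent, whereas most of the antigen processing genes were detected. Of 10 interferon response genes, 5 had no read in any cell (Nlrc5, Isg15, Ifit1, Ifit3 and Cxcl10), and Irf1, a factor that switches on Psmb8 and Psmb9, was at 10 CPM in 2 cells. Tap1, the peptide transporter gene beside Psmb9, was at 10 CPM in 26 cells, while 8 of the 9 antigen processing genes were at 10 CPM in at least 10% of cells, such as the class I gene H2-D1 with a median of 276 CPM and its partner B2m with 42.4 CPM. Psmb10 varied with none of them beyond a rho of 0.16: it had 0.044 with Tap1, 0.003 with H2-D1, 0.013 with B2m and 0.154 with Psme2, which was 0.043 on plate 1 and 0.262 on plate 2.

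Psmb8 or Psmb9 reached 10 CPM in 6 cells, 5 on plate 1 and 1 on plate 2, and no cell had both at that level. Below it, well A3 of plate 2 had 1.60 CPM of each. Well F4 of plate 1 had the highest Psmb8, 75.5 CPM from 16 reads, together with 387 CPM of Psmb10, 590 CPM of B2m and 1825 CPM of H2-D1. Well A3 of plate 1 had the highest Psmb9, 62.4 CPM from 31 reads, and 173 CPM of Tap1, whose exons overlap 5.79% of the Psmb9 exons on the opposite strand, so that without stated strand counting part of these reads may belong to either gene. Well A6 had 20.6 CPM of Psmb8 with 54.9 CPM of Irf1. All 6 cells had at least 24868 CPM of Krt14, and Cd74, Ptprc, Cd207 and Cd3e, markers of immune cells, were at 0 in each. The expected number of stray reads was at most 0.116 for either gene in each of the 6.

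The spread of the proteasome genes over cells was near the trend of the spike-ins, as was that of genes in general. That trend was fitted to the ERCC spike-ins, RNAs added in equal amount to each well. It gives the squared coefficient of variation against the mean. A gene was called variable at 2 times the trend or more on both plates. By this rule 0 of 39 proteasome genes with a mean of at least 50 CPM were called, against 1.76% of 3685 genes. The count was also 0 at 1.5 times the trend (4.07% of all genes), with a mean of at least 20 CPM (1.07%), with scran size factors (1.95%) and in the 180 cells with at least 150000 counts (1.79%). A count of 0 among so few genes is near these shares. The median ratio to the trend was 0.863 on plate 1 and 0.924 on plate 2 for the proteasome genes, and 0.897 and 0.899 for all genes. Since the median gene lay below the trend, the ratio cannot tell how much of a gene's spread is technical. Ranked by the smaller plate, the highest ratios were 1.16 for the lid gene Psmd6, 1.15 for Psmc3, 1.07 for Psma1 and 1.06 for the lid gene Psmd3. Psmd3 reached 1.78 on plate 1, and its highest cell had 1819 CPM against a median of 157 CPM. The lowest ratios were 0.252 for Psmb5 and 0.294 for Psma3, below the noise of the spike-ins at the same mean. The base chaperone Psmd10 reached 1.84 on plate 2 but 0.948 on plate 1.

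The proteasome genes varied together weakly from cell to cell. Over the 741 pairs of the 39 genes, the mean Spearman rho of CPM over 188 cells was 0.0548, 0.0672 on plate 1 and 0.0427 on plate 2, beside 0.0143 over all pairs of 3685 genes. The coefficient was above 0 in 76.0% of proteasome pairs and 57.2% of all pairs, and 13.6% of proteasome pairs lay above 0.145, the 95th percentile of all pairs. All pairs share the cells' depth and library reactions, and sampling noise in low counts lowers a rho, so these values are descriptions. By part of the particle, the mean rho was 0.0893 within the 20S core, 0.0633 within the 19S cap and 0.0707 between them.

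Sums over parts of the particle, in which the counting noise of single genes averages out, were also compared. The alpha ring sum had a rho of 0.362 with the beta ring sum (plates 0.421 and 0.311), and the 20S sum had 0.429 with the 19S sum (0.469 and 0.389). Base and lid had 0.264 (0.264 and 0.257). After ranks were adjusted for total counts and genes detected, the 20S and 19S sums had 0.434. The ratio of the 20S sum to the 19S sum was 0.659 in the lowest, 1.29 in the median and 3.73 in the highest cell. PA28 and the base chaperones held no stable relation to the core, with a rho of 0.230 and 0.299 on plate 1 but -0.079 and 0.007 on plate 2.

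**Figure D4:**
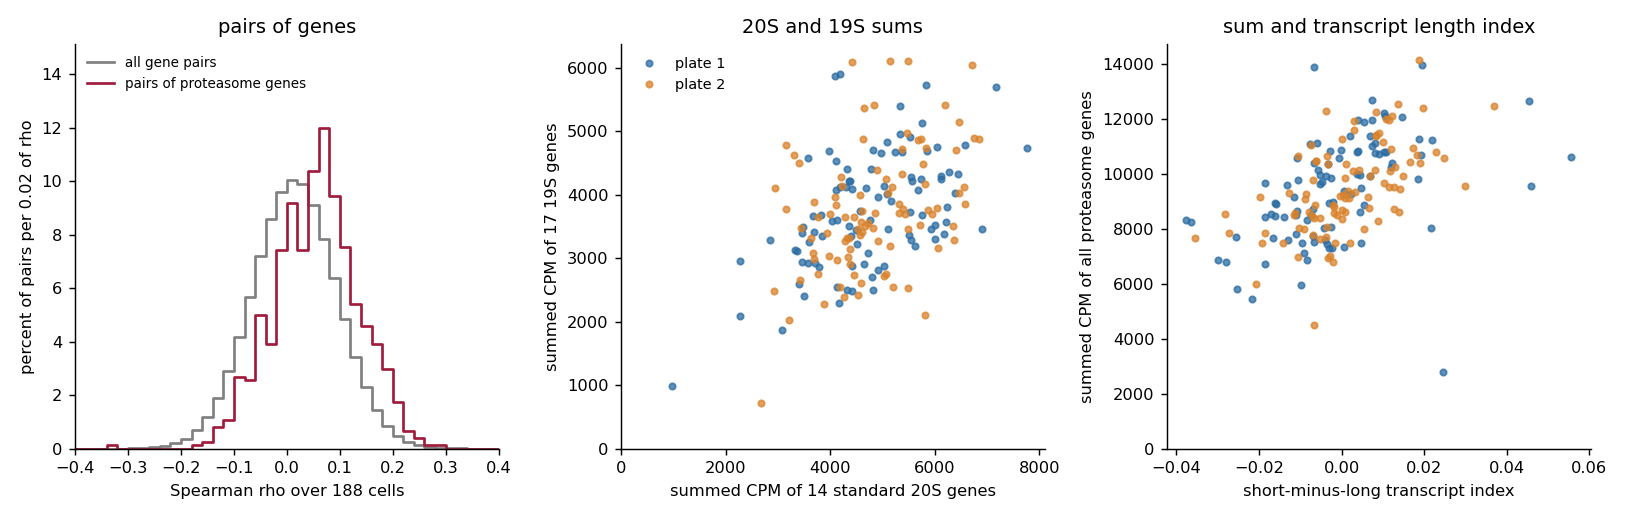
Left, distribution of Spearman rho over 188 cells for 741 pairs of proteasome genes and for all pairs of 3685 genes, as the percent of pairs per 0.02 of rho; centre, summed CPM of 17 19S genes against 14 standard 20S genes, 1 point per cell by plate; right, summed CPM of all 46 genes against an index of short against long transcripts. The proteasome pairs are shifted to the right by a small amount (mean 0.0548 against 0.0143), the 2 sums go together (rho 0.429), and the total goes with the index (rho 0.584).

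The most closely matched pair, ranked by the plate with the lower rho, was Psma7 with the PA28 gene Psme2, at 0.288 (plates 0.263 and 0.316). The lid genes Psmd8 and Psmd13 had 0.244 (0.244 and 0.249), the beta ring genes Psmb2 and Psmb4 0.227 (0.212 and 0.236), and the lid genes Psmd8 and Psmd14 0.245 (0.209 and 0.282). When each gene was set against the sum of all the others, rho ran from -0.176 for Psme4 to 0.313 for Psma2, with a median of 0.167. The median over all 3685 genes was 0.0352. At a rho of at least 0.3 on both plates 0 of 39 were called, beside 0.163% of all genes, and at -0.3 or less 0 of 39, beside 0.271%. Psme4 was the only gene of the 39 below -0.1, at -0.219 and -0.120 on the plates.

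A single pair of the 741 stood apart below 0, and it is described because of its value. The values given for it restate that choice and do not test it. Such pairs also occur among all gene pairs, of which 0.00569% had a rho from -0.34 to -0.32 and some had a lower one. Psma3, of the alpha ring, and Psmd12, of the lid, had a rho of -0.327, with -0.332 on plate 1 and -0.343 on plate 2. The next lowest pair had -0.165. Among 3685 genes, Psmd12 had the lowest rho with Psma3, and Psma3 the lowest with Psmd12. In the 47 cells with the least Psmd12, at a median of 41.6 CPM, the median of Psma3 was 138 CPM, and in the 47 cells with the most, at 341 CPM, it was 85.7 CPM. Other scalings of the counts gave -0.331 to -0.327, except that dividing by the spike-in reads gave 0.000, a scaling under which the median over all gene pairs was 0.142. It was -0.277 after thinning and -0.331 with ranks adjusted for the transcript length index and mitochondrial share. Pearson's r on log2(CPM + 1) was -0.262.

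Features of the libraries moved with the summed proteasome level. Its rho was -0.496 with the mitochondrial share of counts (plates -0.490 and -0.510). It was 0.584 (0.583 and 0.599) with an index of short against long transcripts, the mean rank score in a cell of the 912 shortest of the other genes minus that of the 912 longest, which was chosen after the data were seen. Proteasome transcripts are short: their median longest transcript had 1955 bases, against 3062 for 3645 other genes, and over those other genes the rho with the proteasome sum was lower for longer transcripts (rho -0.387 across genes, which are not independent). The 912 shortest had a median rho of 0.0764 with the sum and the 912 longest -0.0362. With ranks adjusted for index and mitochondrial share, the 20S and 19S sums had a rho of 0.217 (0.278 and 0.135), the alpha and beta ring sums 0.173 and the mean over member pairs 0.0329, beside a median of 0.0142 over all pairs. The part of these library features in the shared variation was not tested further.

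Among genes outside the set, those with the highest rho to the proteasome sum on both plates were Eif5a, a translation factor, at 0.409 (0.374 and 0.444), then Strap, Grwd1, Mrpl9, Ran, Vdac1, Thumpd3, Atp5b, Prdx1 and Ecsit, at 0.283 to 0.360. Ran drives nuclear transport, Grwd1 and Mrpl9 serve the ribosomes of the cytosol and mitochondrion, and Atp5b is a subunit of ATP synthase. The likeness was measured over 188 cells, and these 10 are named for it without a test. The summed ribosomal protein genes (57 genes) had a rho of 0.194 (0.162 and 0.234). At the other end, 10 genes had -0.3 or less on both plates. Of these, 6 are encoded by the mitochondrion, led by mt-Rnr2 at -0.488, and another was Col17a1, the collagen of the anchoring plaques of basal cells, at -0.433 (-0.329 and -0.538), with a longest transcript of 5588 bases.

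The question whether proteasome expression shifts as cells begin to differentiate was put to Krt10. Krt10 had 185, 882 and 45289 CPM in the lowest, median and highest cell. Stray reads from cells high in Krt10 may make up part of its low values, and the expected amount is not given here. The order of cells low in Krt10 is therefore uncertain. The summed proteasome genes had a rho of 0.110 with Krt10 over 188 cells, but the plates differed in sign, at -0.069 on plate 1 and 0.292 on plate 2. With stray reads subtracted the sum had 0.0968. Dropping the 2 most extreme cells by Krt10 gave 0.105, and Pearson's r on log2(CPM + 1) was 0.092. With scran size factors in place of CPM the sum had 0.215, and the median over single genes went from 0.0324 to 0.0687. Krt10 itself moved with depth (rho -0.258 with total counts) and with the transcript length index (0.204, plates 0.079 and 0.295). With ranks adjusted for that index and the mitochondrial share, the sum had -0.015 with Krt10 (-0.158 and 0.114).

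Gene by gene, the count of proteasome genes called with Krt10 was near the share over all genes. Of the 41 at 10 CPM in at least 10% of cells, 0 had a rho of at least 0.3 on both plates, beside 0.631% of 9344 genes, and 0 had -0.3 or less, beside 0.471%. At 0.2 the counts were also 0 and 0, beside 1.82% and 1.96%. Counts of 0 among 41 genes are near these shares and do not set the proteasome genes apart. The median rho of the 41 was 0.0324, and that of all genes -0.0046, with 5% of all genes below -0.185 and 5% above 0.175. Of the 41, 22 had the same sign on both plates, a share that was not computed over all genes. On plate 1, 15 were above 0, beside 46.3% of the 9344 genes. On plate 2, 30 were above 0, beside 49.7%. By the same rule 8 of the 10 other early differentiation genes were called higher and 8 of 10 basal keratinocyte genes lower. Those lists hold markers of differentiation and of the basal state, chosen with earlier results of these data known. Their counts are therefore no test of the rule.

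**Figure D5:**
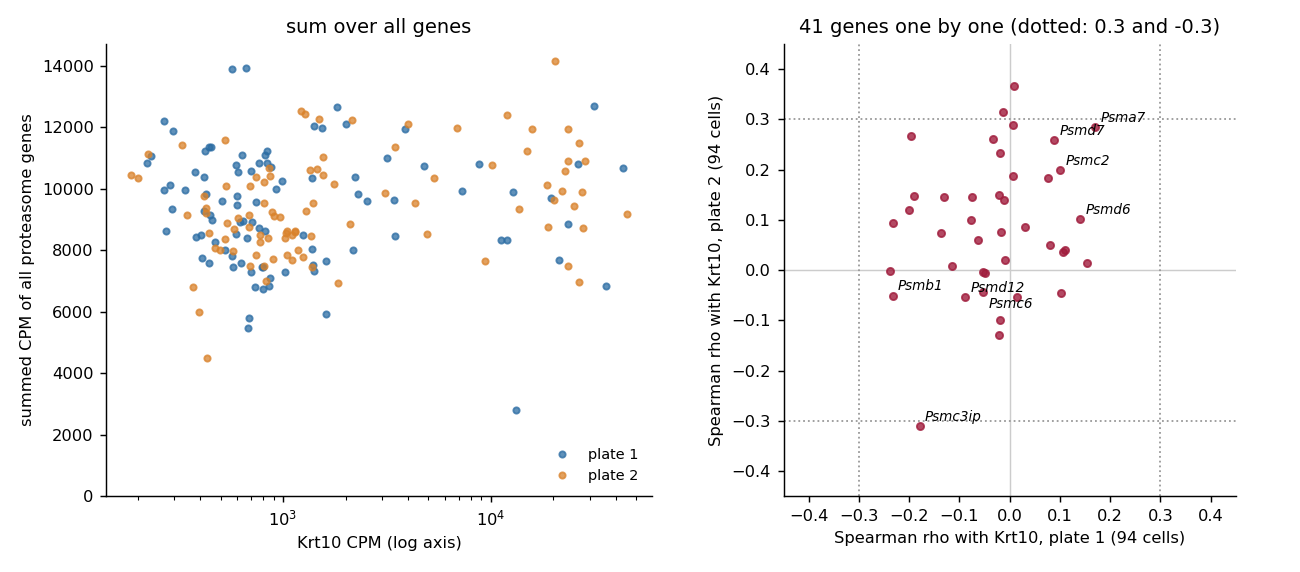
Left, summed CPM of the 46 proteasome genes against Krt10 CPM on a log axis, 1 point per cell by plate; right, Spearman rho of each of 41 proteasome genes with Krt10 on plate 1 (horizontal) and plate 2 (vertical), 94 cells each, dotted lines at 0.3 and -0.3. The sum shows little slope (rho 0.110 over all cells, -0.069 on plate 1 and 0.292 on plate 2). No gene lies beyond the dotted lines in the same direction on both plates, which few of all genes do (0.631% above and 0.471% below).

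The highest values, ranked by the plate nearer to 0, belonged to Psma7 of the alpha ring at 0.217 (0.170 and 0.284), the lid gene Psmd6 at 0.125 (0.140 and 0.101), the ATPase gene Psmc2 at 0.140 (0.0997 and 0.199) and the lid gene Psmd7 at 0.190 (0.089 and 0.258). Psma7 had 22.2, 477 and 1120 CPM in the lowest, median and highest cell. Psmd6 had 4.19, 198 and 1106 CPM and Psmc2 had 3.79, 190 and 802 CPM. At the low end, Psmd12 had -0.068 (-0.089 and -0.054), Psmb1 -0.136 (-0.233 and -0.051) and the ATPase gene Psmc6 -0.026 (-0.052 and -0.043). The cutting subunits were close to 0 or split between plates: Psmb5 had 0.094 (0.107 and 0.036), Psmb6 -0.115 (-0.238 and -0.002) and Psmb7 0.017 (-0.130 and 0.144). Psmb10 had -0.030 (-0.049 and -0.006). With stray reads subtracted, Psmb10 had 0.071, Psmb5 0.021, Psmb7 -0.028 and Psmb6 -0.113. As sums, the beta ring had -0.293 on plate 1 and 0.179 on plate 2, and the alpha ring 0.081 and 0.265.

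The lowest rho with Krt10 among all 41 belonged to Psmc3ip, the recombination gene matched by name, at -0.246 (-0.179 and -0.311). It had 0, 5.32 and 365 CPM in the lowest, median and highest cell and was at 10 CPM in 41.0% of cells (exact 95% interval 33.9% to 48.3%). Its level had a positive rho with the summed S phase genes (0.378, plates 0.333 and 0.414), a list of replication genes that itself had -0.383 with Krt10. A share of 21.2% of its exons overlaps Mlx on the opposite strand, so some of its reads may be those of Mlx.

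Other genes of the pathway differed in how they went with the proteasome sum. All 6 core assembly factors were at 10 CPM in at least 10% of cells, among them Pomp, the maturation factor of the core, at a median of 253 CPM, and their sum had a rho of 0.203 with the proteasome sum. Of the 9 listed cap subunits and associated proteins without a Psm name, 6 were measured under the listed symbol. Sem1, a small lid subunit, had a median of 726 CPM, and Adrm1, the ubiquitin receptor, and Uchl5, the deubiquitinase it anchors, had a rho of 0.261 and 0.231 with the proteasome sum. Nfe2l1, the factor that raises proteasome transcription when the protease is blocked, had a median of 23.5 CPM and a rho of -0.230 with the proteasome sum (-0.257 and -0.186). The summed ubiquitin supply genes had 0.0505 and the shuttle receptors 0.0408. No gene of these lists or of the antigen processing list had a rho of at least 0.3 on both plates with the proteasome sum or with Krt10, or of -0.3 or less, which few genes reached in all (0.163% and 0.271% with the sum, 0.631% and 0.471% with Krt10).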

How the data were processed

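Reads of single cells prepared with Smart-seq2 were counted per gene by the authors, who deposited raw whole-number counts, with ERCC spike-ins added to the lysis buffer per the labels' protocols. HTSeq 0.6.0, STAR 2.5.2b, cutadapt 1.13 and the GRCm38 build are listed in the submitters' processing notes; no source used here gives the annotation release or the strand setting. CPM were computed from the deposited counts relative to the total of the 49585 gene rows in a cell, leaving out 92 spike-in rows. Symbols matched 49326 rows, and exon lengths came from GENCODE M21. The members and gene lists were chosen with earlier results of these data known. Genes named are those of the catalytic pairs, the 2 highest by mean CPM per role, the 4 highest and 4 lowest with Krt10, the extremes against the spike-in trend, the 4 closest pairs, members with no read or matched by name only, the listed genes and the 10 genes most like the sum. The values of 1 listed gene are not reported here. Relations are Spearman rho over cells, per plate and pooled, with calls at 0.3. The spike-in trend used 35 and 34 spike-ins. Stray reads were estimated from 21 genes. The functions were tested on simulated data. Python 3.11.15, scipy 1.17.1, scran 1.30.0 and R 4.3.3 were used. Reads without molecular identifiers count amplified copies. No paired analysis was possible because the cells form 1 group.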

Additional observations from a re-analysis of the deposited data

How the results depend on the processing

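The results rest on 1 group of cells with no named animals, on 2 plates, and the depth of 79868 counts in the shallowest cell limits what can be seen of genes near 10 CPM. Of the alternatives for the main results, 111 left the value within its spread or within 1.5 times the count and 18 moved it. For single genes with Krt10 and the 3 folds per kb these counts were 106 and 29. No member was called with Krt10 or with the sum in the main setting, so no called direction could be reversed. Signs of single genes with Krt10 did change. Subtracting stray reads took Psmb10 from -0.030 to 0.071 and Psmb7 from 0.017 to -0.028. Dividing by spike-in reads took Psmb1 from -0.136 to 0.259 and Psmb6 from -0.115 to 0.202, while Psmc3ip stayed below 0 at -0.113. Dividing by spike-in reads, which raises the rho of all genes (median over all pairs 0.142, 36.0% of all genes called with the proteasome sum, median rho with Krt10 0.103 and 2.76% called), gave a mean rho over member pairs of 0.277, 33 members called with the others, a rho of the sum with Krt10 of 0.439, a median rho with Krt10 of 0.240 and 5 members called higher with Krt10. This scaling moved the median gene mean by 0.245 on the log2 scale, and leaving mitochondrial and keratin genes out of the total by 0.213. Plate 1 alone gave 8 members called with the others (1.93% of all genes); plate 2 alone gave 7 (1.82%), and 2 members called higher and 1 lower with Krt10 (2.34% and 1.96%), since a single plate is an easier condition than both. Pearson's r on log2(CPM + 1) gave a mean of 0.0759 over member pairs (0.0201 over all pairs) and 2 members called (0.353% of all genes). Adjusting ranks for the transcript length index and the mitochondrial share, added after the data were seen, gave 0.0329 over member pairs, and it turned the sign of the sum's rho with Krt10, as did plate 1 alone. Psmb8 was in 0% of cells at 10 CPM on plate 2 alone and in 4.26% with at least 1 read, and Psmb9 in 11.2% with at least 1 read. Psmb10 was in 61.7% of cells after thinning, 83.5% with at least 1 read and 40.4% when it had also to exceed 3 times the expected stray reads, a rule added after the data were seen. No paired analysis was possible because all cells form 1 group.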
